A study of Mus musculus with 12 samples.

Results

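The data were read for 10 genes that handle arginine, polyamines, creatine and methionine: Arg1, Odc1, Srm, Sms, Sat1, Mtap, Adi1, Mat2a, Gatm and Gamt. They were taken by gene symbol, and all 10 were found among the 23284 gene symbols of the tables. Total RNA of mouse embryonic fibroblasts (MEFs) had been sequenced in 12 libraries, in 6 groups of 2. All groups were labelled as secondary (2o) 1B MEFs, a line known in the field to carry reprogramming factor transgenes, Myc among them, that doxycycline (dox) switches on. Cells had been transfected with siControl, the non-targeting arm, with siRNA to c-Myc (labelled sic-Myc, here siMyc) or with siGcn5, which targets the product of Kat2a. Each arm was sampled in the absence of dox and after 2 days of it. Per the labels' protocols, siRNAs were transfected at seeding and dox was given in mouse embryonic stem cell medium. Time since transfection and medium may therefore also differ between the groups without and with dox. Their parts cannot be told apart from that of dox, and a change with dox below means the whole difference. The labels name 1 fibroblast line and tie no replicate to a separate culture or embryo, so p-values reflect library-to-library spread that may be technical. Pools and single siRNAs are both mentioned, without saying which gave the present data. The comparisons ask how these enzymes respond to the start of reprogramming and how that response differs when Myc or the histone acetyltransferase Gcn5 is depleted.

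Arginase (Arg1) splits arginine into urea and ornithine. Ornithine decarboxylase (Odc1) turns ornithine into putrescine, spermidine synthase (Srm) adds an aminopropyl group to give spermidine, and spermine synthase (Sms) adds another to give spermine. Each aminopropyl group comes from S-adenosylmethionine, which Mat2a makes from methionine, and leaves methylthioadenosine behind. Mtap cleaves methylthioadenosine and starts the salvage route back to methionine, on which Adi1, an acireductone dioxygenase, acts late. Sat1 acetylates spermidine and spermine, which marks them for export or breakdown. Creatine is made from arginine and glycine, first by Gatm and then by Gamt, which adds the methyl group with S-adenosylmethionine as the donor. Growing cells need polyamines, and Odc1 is a long-known target of Myc, which binds the E-box CACGTG with its partner Max.

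Levels are RPKM (reads per kilobase of transcript, scaled to library depth), and values after ± are SDs over 2 libraries. A gene was called at a limma adjusted p under 0.05 over all 13175 genes tested, with changes computed as differences of log2(RPKM + 1), so that those of low genes are understated. Gene reads recovered from the RPKM steps ran from 65.5 M to 188 M per library, and member values rested on 89 to 119315 reads. The siRNA targets were lower where the labels say so. Without dox the Myc level was 4.69 ± 0.16 RPKM under siMyc against 19.6 ± 3.0 under siControl, and with dox 21.6 ± 6.6 against 165 ± 14. For Kat2a the level under siGcn5 was 1.65 ± 0.45 against 21.9 ± 1.6 without dox and 7.69 ± 2.0 against 54.4 ± 1.8 with dox. Each siRNA also lowered the other's target. Under siGcn5 the Myc level was 8.20 ± 1.6 RPKM without dox (log2 −1.17, adjusted p = 0.00061) and 116 ± 18 with dox (log2 −0.51, adjusted p = 0.046). Under siMyc the Kat2a level was 18.8 ± 0.88 RPKM with dox (log2 −1.49, adjusted p = 8.3e-06) and 17.0 ± 0.75 without it (log2 −0.34, adjusted p = 0.13). RPKM does not separate the introduced copy of Myc from the cell's own. All 8 fibroblast markers were above 1 RPKM in each group. Their summed level was 11206 to 11278 RPKM in siControl without dox and 2828 to 3237 with dox, 10370 to 10431 and 5610 to 5615 in siMyc, and 9094 to 9379 and 4377 to 5122 in siGcn5. The 4 basal keratinocyte markers, summed, rose from at most 0.728 RPKM without dox to between 327 and 1010 with dox, nearly all of it Krt14, and Trp63 was at most 0.0516 RPKM in any library. The part of such a change of cell state in the results below was not tested, and in bulk RNA fewer cells of a type and less RNA per cell cannot be told apart.

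All 10 genes passed the filter on low values. The 10 genes and the pathway lists were chosen with earlier results of these data known. Counts set beside the share of all genes are therefore a description and not a test of the set. With dox in siControl cells 7 of the 10 rose and 1 fell, with 2 not passing, where 46.1% of all genes tested rose and 27.9% fell (74% called). With dox in siMyc cells 3 rose, 2 fell and 5 did not pass, where 28.9% of all genes rose and 15.9% fell (44.8% called). With dox in siGcn5 cells 8 rose, none fell and 2 did not pass, where 36% of all genes rose and 22.4% fell (58.4% called). The median log2 change of the 10 was 1.13 in siControl, 0.16 in siMyc and 0.72 in siGcn5, beside 0.17, 0.08 and 0.08 for all genes. Median-ratio scaling moved the median of all genes in siControl from 0.17 to 0.03, so a member's rise there can be read against that shift.

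Against siControl, siMyc raised 2 members and lowered 4 without dox, where 12.8% of all genes were higher and 10.7% lower (23.5% called). With dox it raised 2 and lowered 8, where 37.7% were higher and 37.1% lower (74.9% called). siGcn5 raised 4 and lowered 3 without dox, where 36.9% of all genes were higher and 20.4% lower (57.3% called). With dox siGcn5 raised 2 and lowered 5, where 31.4% were higher and 24.9% lower (56.3% called). The count for siGcn5 with dox fell from 7 to 4 without siControl replicate 2 with dox or siGcn5 replicate 1 with dox. The share of all genes called fell there as well, from 56.3% to 42.3% and 39.2%. The siMyc and siGcn5 effects share their siControl libraries, so their values are given side by side. The dox response in siMyc was lower than in siControl for 7 members and higher for 1, where it was lower for 29.3% of all genes and higher for 24.8% (54.1% called for this interaction). In siGcn5 the dox response was lower for 3 members and higher for 1, where it was lower for 14.5% of all genes and higher for 11.4% (25.9% called). Set against each other, siMyc lay below siGcn5 for 6 members and above it for 1 without dox, where 36.5% of all genes were lower and 22.2% higher (58.7% called). With dox siMyc lay below siGcn5 for 9 members and above it for 1, where 38.6% were lower and 27.3% higher (65.9% called).

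**Figure D1:**
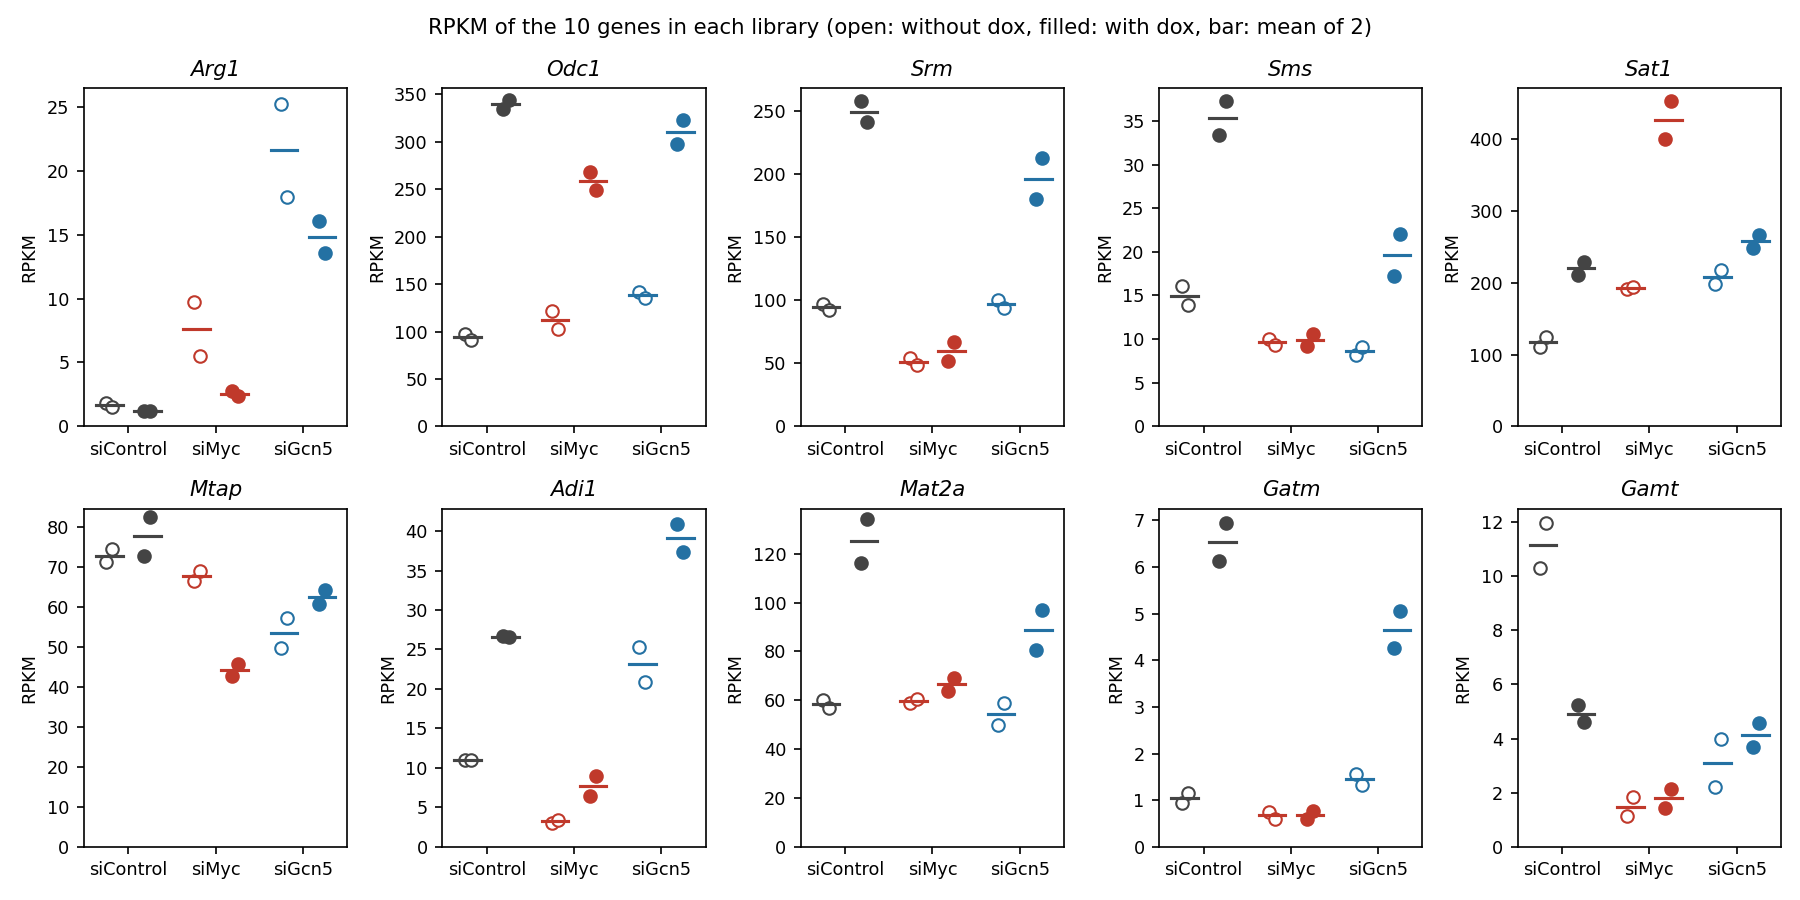
RPKM of each gene (vertical axes, 1 scale per gene, starting at 0) in the 12 libraries, by siRNA (horizontal axis), with open circles without dox, filled circles with dox and bars at the mean of 2 libraries. Srm, Sms, Gatm and Mat2a reach their highest level in siControl with dox and stay near their level without dox in siMyc, while Arg1 is highest in siGcn5 and Sat1 in siMyc with dox.

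Arg1, at the head of the route, was low in control cells and high where Gcn5 was depleted. Its RPKM was 1.82 and 1.50 in siControl without dox and 1.24 and 1.21 with dox. Under siGcn5 the values were 25.2 and 18.0 without dox and 16.1 and 13.5 with dox. Under siMyc they were 9.75 and 5.54 without dox and 2.74 and 2.38 with dox. No 2 of the 6 groups overlapped, and the order from the lowest was siControl with dox, siControl without dox, siMyc with dox, siMyc without dox, siGcn5 with dox and siGcn5 without dox. The mean was 13.0 times that of siControl in siGcn5 without dox (log2 3.07, SE 0.21, adjusted p = 6.7e-06) and 12.1 times with dox (log2 2.82, adjusted p = 1.4e-05). With siMyc the mean was 4.60 times that of siControl without dox (log2 1.66, adjusted p = 0.0010) and 2.09 times with dox (log2 0.68, adjusted p = 0.015). The call with dox ended without either siControl library with dox (0.0514 and 0.0587) or siMyc replicate 1 with dox (0.0764). The siMyc level lay below the siGcn5 level without dox (log2 −1.41, adjusted p = 0.00032) and with dox (log2 −2.15, adjusted p = 1.1e-05).

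Dox lowered Arg1 in siMyc cells by a log2 change of −1.24 (SE 0.21, adjusted p = 0.00090). In siControl the change was −0.26 (adjusted p = 0.30) and in siGcn5 −0.50 (adjusted p = 0.066). The siGcn5 change passed the test with median-ratio scaling (0.0287), quantile normalization (0.0276) and voom (0.0479), and without siMyc replicate 1 or 2 without dox (0.0192 and 0.0191) or siGcn5 replicate 2 without dox (0.0302). The dox response of siMyc cells differed from that of siControl (log2 −0.98, SE 0.30, adjusted p = 0.020), a call that ended with no filter on low values (0.05002), with voom (0.0892) and without siControl replicate 2 without dox (0.0658) or with dox (0.0507), siMyc replicate 1 without dox (log2 −0.62, 0.0581) or siMyc replicate 2 with dox (0.0558). Arg1 is also a gene of macrophages and liver. Without dox the 7 macrophage markers found summed to 5.86 to 6.66 RPKM in siGcn5, 5.49 to 6.52 in siControl and 6.41 to 7.32 in siMyc. With dox they summed to 8.20 to 9.48 in siGcn5, 8.15 to 8.90 in siControl and 12.8 to 13.3 in siMyc. Cd68 (1.71 to 7.10 RPKM) and Lyz2 (1.02 to 3.26) were above 1 RPKM in every library, Cd14 reached 2.25 and Itgam 1.99, while Csf1r was at most 0.890, the pan-leukocyte gene Ptprc was at most 0.149 RPKM and Emr1 (F4/80) at most 0.0965 in any library. Their part in the Arg1 levels was not tested. Of the hepatocyte markers none reached 1 RPKM in any group.

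Of the polyamine synthesis members, Odc1 and Srm stood at means of 94.4 and 94.3 RPKM in siControl without dox, and Sms at 15.0. The promoter windows of Odc1 and Sms are shown because they hold CACGTG or the related CACGCG, letters that Myc and Max are known to bind. The window of Sat1, also a polyamine member, holds neither and is not shown. The windows run from 250 bases before to 50 after an annotated start in RefSeq (GRCm38.p6), 5′ to 3′, with CACGTG and CACGCG on either strand (the latter also read as CGCGTG) in capitals. Odc1 lies at chr12:17544623-17544922 on the plus strand, and the Sms windows at chrX:157492238-157492537 and chrX:157491319-157491618 on the minus strand.
Odc1: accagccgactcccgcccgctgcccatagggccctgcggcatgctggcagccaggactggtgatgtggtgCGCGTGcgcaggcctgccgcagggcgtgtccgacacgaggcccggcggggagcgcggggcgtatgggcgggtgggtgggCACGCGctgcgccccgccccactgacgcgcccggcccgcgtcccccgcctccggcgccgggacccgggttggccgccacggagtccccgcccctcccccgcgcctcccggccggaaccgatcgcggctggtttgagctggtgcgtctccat
Sms, upstream start: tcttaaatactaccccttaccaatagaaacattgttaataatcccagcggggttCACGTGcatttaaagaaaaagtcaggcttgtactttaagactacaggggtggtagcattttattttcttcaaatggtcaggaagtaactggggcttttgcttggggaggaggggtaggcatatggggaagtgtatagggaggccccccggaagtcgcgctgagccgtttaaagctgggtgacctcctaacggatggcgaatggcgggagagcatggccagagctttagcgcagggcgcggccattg
Sms, downstream start: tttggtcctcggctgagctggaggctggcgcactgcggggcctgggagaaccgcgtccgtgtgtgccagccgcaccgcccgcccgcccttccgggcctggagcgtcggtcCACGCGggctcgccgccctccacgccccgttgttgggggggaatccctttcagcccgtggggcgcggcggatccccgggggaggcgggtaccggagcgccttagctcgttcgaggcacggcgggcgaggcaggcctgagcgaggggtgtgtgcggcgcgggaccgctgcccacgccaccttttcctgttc
The upstream Sms window holds the CACGTG, the downstream Sms window holds 1 CACGCG and the Odc1 window 2. Of 32851 RefSeq windows of this length, 7.15% hold CACGTG and 9.27% CACGCG. Of the 7 members with a window, 1 held CACGTG (Sms) and 3 held CACGCG (Odc1, Sms and Gatm), while Mtap, Mat2a, Gamt and Sat1 had neither string in theirs. Arg1, Srm and Adi1 had no window in the table. Sequence outside the windows, such as introns, was not searched, so a gene without a string here may hold it elsewhere.

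Odc1, the enzyme that commits ornithine to polyamines, rose with dox in all 3 arms. Its RPKM went from 97.7 and 91.1 to 335 and 344 in siControl, from 122 and 102 to 268 and 249 in siMyc, and from 142 and 135 to 298 and 323 in siGcn5. No library with dox overlapped any without it. The log2 change was 1.84 (SE 0.09, adjusted p = 9.6e-08) in siControl, 1.20 (adjusted p = 1.7e-06) in siMyc and 1.16 (adjusted p = 4.0e-06) in siGcn5. The rise was smaller than in siControl in siMyc (log2 −0.63, SE 0.13, adjusted p = 0.0020) and in siGcn5 (log2 −0.68, SE 0.13, adjusted p = 0.0064). The smaller rise went with a higher start in siGcn5, where Odc1 without dox was above siControl (log2 0.55, adjusted p = 0.00052), and the level with dox was at log2 −0.13 from siControl (adjusted p = 0.24). In siMyc Odc1 without dox was at log2 0.24 (adjusted p = 0.076, and 0.0267 without siMyc replicate 2 without dox), and with dox it was lower than siControl (log2 −0.39, adjusted p = 0.0023). siMyc lay below siGcn5 without dox (log2 −0.31, adjusted p = 0.013) and with dox (log2 −0.26, adjusted p = 0.024). These last calls ended with median-ratio scaling (0.100 and 0.302), without siMyc replicate 2 (log2 −0.18, 0.125) or siGcn5 replicate 1 (0.0782) without dox, and without siMyc replicate 2 (0.128) or siGcn5 replicate 2 (0.123) with dox.

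Srm, which makes spermidine, rose with dox in siControl and siGcn5 and was low in siMyc throughout. In siControl its RPKM was 96.8 and 91.8 without dox and 257 and 241 with dox (log2 1.39, SE 0.12, adjusted p = 3.2e-06). The siGcn5 values were 100.4 and 94.1 without dox and 179.8 and 212 with dox (log2 1.00, adjusted p = 8.3e-05). The siMyc values were 54.4 and 48.2 without dox and 51.9 and 67.1 with dox, and these groups overlapped. The siMyc change with dox did not pass the test (log2 0.20, adjusted p = 0.21) except without siMyc replicate 1 with dox (log2 0.38, 0.0287). The dox response of siMyc cells was smaller than that of siControl (log2 −1.19, SE 0.17, adjusted p = 0.00035), and with dox the siControl mean was 4.18 times the siMyc mean (log2 −2.06, adjusted p = 3.4e-07). Without dox it was 1.84 times (log2 −0.87, adjusted p = 0.0014). In siGcn5 Srm was at log2 0.04 without dox (adjusted p = 0.79) and −0.35 with dox (adjusted p = 0.032). The latter call ended with no filter on low values (0.0617), without either siControl library with dox (0.137 and 0.0671) and without siGcn5 replicate 1 with dox (log2 −0.23, 0.217). The siMyc level lay below that of siGcn5 without dox (log2 −0.91, adjusted p = 0.00015) and with dox (log2 −1.71, adjusted p = 1.4e-06).

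Sms, the spermine synthase, was lower under both siRNAs and rose with dox in siControl and siGcn5. Its RPKM was 16.1 and 13.9 in siControl without dox and 33.4 and 37.3 with dox (log2 1.19, SE 0.12, adjusted p = 1.1e-05). In siGcn5 it rose from 8.18 and 9.09 to 17.3 and 22.1 (log2 1.09, adjusted p = 4.9e-05). In siMyc it was 9.96 and 9.35 without dox and 9.25 and 10.6 with dox, overlapping groups with a log2 change of 0.03 (adjusted p = 0.85). The dox response of siMyc differed from that of siControl (log2 −1.15, SE 0.17, adjusted p = 0.00045), and that of siGcn5 was at log2 −0.09 from it (SE 0.17, adjusted p = 0.72). Against siControl, Sms without dox fell by 0.58 on the log2 scale in siMyc (adjusted p = 0.0084, and 0.0757 without siControl replicate 1 without dox) and by 0.73 in siGcn5 (adjusted p = 0.00066). With dox it fell by 1.74 in siMyc (adjusted p = 8.6e-07) and by 0.82 in siGcn5 (adjusted p = 0.00039). siMyc stood at log2 0.15 from siGcn5 without dox (adjusted p = 0.33) and below it with dox (log2 −0.91, adjusted p = 9.0e-05).

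**Figure D2:**
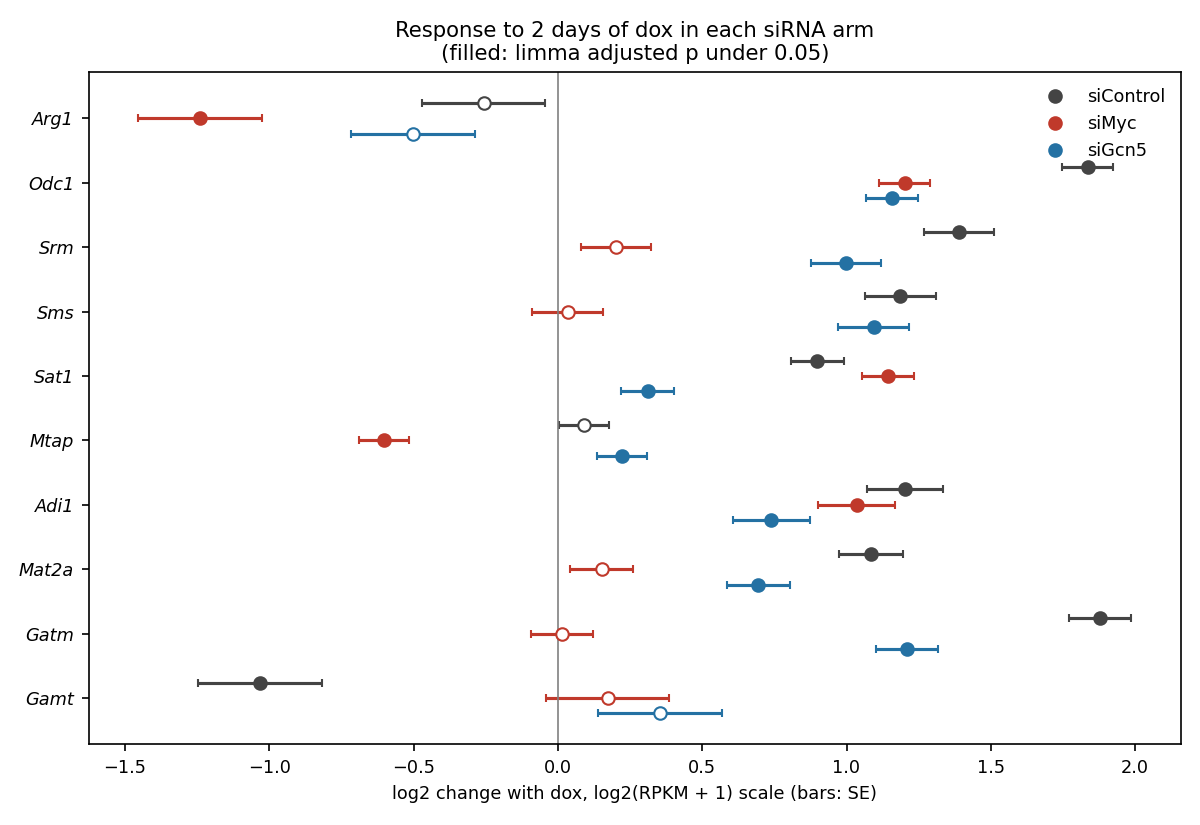
log2 change with dox (horizontal axis, log2(RPKM + 1) scale) of each gene (vertical axis) in siControl, siMyc and siGcn5, with SE bars and filled circles where the limma adjusted p was under 0.05. Srm, Sms, Mat2a and Gatm lie between 0.01 and 0.20 in siMyc and between 1.08 and 1.88 in siControl, while Odc1, Sat1 and Adi1 rose in all 3 arms.

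Sat1, which acetylates spermidine and spermine for removal, ran the other way under siMyc. Its RPKM was 110.1 and 125 in siControl without dox and 211 and 229 with dox. The siMyc libraries stood at 191 and 194 without dox and 399 and 454 with dox, the highest of all groups. Those of siGcn5 stood at 198 and 217 without dox and 248 and 267 with dox. With siMyc the level rose against siControl by log2 0.71 without dox (adjusted p = 0.0010) and 0.95 with dox (adjusted p = 5.6e-06). With siGcn5 it rose by 0.82 without dox (adjusted p = 6.3e-05), and with dox it was at log2 0.23 (adjusted p = 0.054), which passed the test with quantile normalization (0.0101) and without either siMyc library with dox (0.0467 for each). Dox raised Sat1 by log2 0.90 in siControl (adjusted p = 9.3e-06), 1.14 in siMyc (adjusted p = 3.1e-06) and 0.31 in siGcn5 (adjusted p = 0.014). The siGcn5 call ended with median-ratio scaling (0.118) and without siGcn5 replicate 1 without dox (0.101) or replicate 2 with dox (0.086). The siGcn5 response was smaller than that of siControl (log2 −0.59, SE 0.13, adjusted p = 0.011). The siMyc response was at log2 0.24 from it (SE 0.13, adjusted p = 0.13, and 0.0153 with quantile normalization). With dox siMyc lay above siGcn5 (log2 0.72, adjusted p = 5.7e-05), and without dox it was at log2 −0.11 (adjusted p = 0.33).

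Among 14 other polyamine genes tested, 8 rose and 2 fell with dox in siControl, where 46.1% of all genes rose and 27.9% fell. With siMyc and dox 3 were higher and 6 lower than in siControl, where 37.7% of all genes were higher and 37.1% lower. Amd1 and Amd2, 2 copies of the S-adenosylmethionine decarboxylase gene, make the aminopropyl donor; they are named for that place in the route, after their values were seen. Their values kept a ratio of 1.00 in every library, so they share reads and are 1 measurement, although the counts of list members include both. Amd1 RPKM was 36.4 and 33.5 in siControl without dox, 75.8 and 91.9 with dox, and 37.5 and 42.5 in siMyc with dox (log2 −1.05 against siControl, adjusted p = 8.2e-06). Eif5a, the translation factor that carries the spermidine-derived residue hypusine, went from 497 and 487 to 1039.9 and 1047 RPKM with dox in siControl. With dox it was 347 and 427 in siMyc (log2 −1.44, adjusted p = 2.6e-05) and 452 and 696 in siGcn5 (log2 −0.89, adjusted p = 0.0015). Eif5a was below siControl without dox as well, at 293 and 302 in siMyc (log2 −0.72, adjusted p = 0.013). In siGcn5 without dox it was 230 and 268 (log2 −0.98, adjusted p = 0.00078). Smox, the spermine oxidase, stood at 5.92 and 4.55 RPKM in siControl with dox and 10.6 and 8.71 in siMyc with dox (log2 0.77, adjusted p = 0.00046). Adc, an older symbol of the antizyme inhibitor gene Azin2, fell with dox in siControl from 26.1 and 29.2 to 8.82 and 6.99 RPKM (log2 −1.69, adjusted p = 9.1e-07) and stood at 18.1 and 15.8 in siMyc with dox (log2 1.02 against siControl, adjusted p = 2.3e-05). Paox, which oxidizes acetylated polyamines, and Sat2, a relative of Sat1, did not pass the test there: Paox was at log2 −0.28 (adjusted p = 0.064) and Sat2 at 0.26 (adjusted p = 0.095) from siControl.

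Mat2a, which makes S-adenosylmethionine in cells outside the liver, rose with dox in siControl and siGcn5 and was lower with dox under both siRNAs than in siControl. Its RPKM went from 60.0 and 56.9 to 116 and 134 in siControl (log2 1.08, SE 0.11, adjusted p = 9.6e-06). In siGcn5 it went from 49.8 and 59.0 to 80.5 and 97.0 (log2 0.69, adjusted p = 0.00046). In siMyc it was 59.0 and 60.6 without dox and 63.9 and 69.2 with dox (log2 0.15, adjusted p = 0.30). Without dox the libraries of each siRNA arm overlapped those of siControl, with log2 changes against it of 0.03 in siMyc (adjusted p = 0.87) and −0.11 in siGcn5 (adjusted p = 0.44). With dox Mat2a was lower than siControl in siMyc (log2 −0.90, adjusted p = 3.3e-05) and in siGcn5 (log2 −0.49, adjusted p = 0.0037). The dox response differed from siControl in siMyc (log2 −0.93, SE 0.16, adjusted p = 0.00080). In siGcn5 it was at log2 −0.39 (SE 0.16, adjusted p = 0.090), which passed the test without siGcn5 replicate 2 with dox (0.0303). With dox siMyc lay below siGcn5 (log2 −0.40, adjusted p = 0.0082), a call that ended with median-ratio scaling (0.0965), without siMyc replicate 1 with dox (0.0572) and without siGcn5 replicate 2 with dox (0.0703).

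Mtap, which opens the salvage of methylthioadenosine, had the smallest log2 change of the 10 with dox in control cells. Its RPKM was 71.2 and 74.4 in siControl without dox and 72.8 and 82.6 with dox, overlapping groups (log2 0.09, adjusted p = 0.36, and below 0 with either rescaling). In siMyc it fell from 66.5 and 69.0 to 42.7 and 45.8 with dox (log2 −0.60, SE 0.09, adjusted p = 0.00027), a response that differed from siControl (log2 −0.69, SE 0.12, adjusted p = 0.0011). In siGcn5 it went from 49.7 and 57.3 to 60.6 and 64.2 (log2 0.22, adjusted p = 0.048). That call ended with no filter (0.0646), with median-ratio scaling (0.335) or quantile normalization (0.233), without either siControl library (0.0655 for each) or either siMyc library (0.0623 for each) without dox, without either siMyc library with dox (0.0562 for each), without siGcn5 replicate 1 without dox (log2 0.12, 0.325) and without siGcn5 replicate 1 (0.0588) or 2 (0.198) with dox. Against siControl Mtap was lower in siMyc with dox (log2 −0.80, adjusted p = 1.4e-05) and in siGcn5 without dox (log2 −0.44, adjusted p = 0.0016) and with dox (log2 −0.31, adjusted p = 0.012). The last of these ended without siControl replicate 2 with dox (0.105) or siGcn5 replicate 1 with dox (0.0746). In siMyc without dox it was at log2 −0.10 (adjusted p = 0.43). siMyc stood above siGcn5 without dox (log2 0.34, adjusted p = 0.0069, and 0.0732 without siGcn5 replicate 1 without dox) and below it with dox (log2 −0.49, adjusted p = 0.00061).

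Adi1, late in the salvage route, moved in opposite directions under the siRNAs. Its RPKM was 10.99 and 11.01 in siControl without dox and 26.7 and 26.6 with dox. Under siMyc Adi1 was at 3.06 and 3.36 without dox and 6.42 and 9.002 with dox. Under siGcn5 it was at 25.3 and 20.9 without dox and 40.9 and 37.3 with dox. No 2 groups overlapped. Against siControl, Adi1 fell by 1.51 on the log2 scale in siMyc without dox (adjusted p = 0.00042) and by 1.68 with dox (adjusted p = 1.6e-06), whereas in siGcn5 it rose by 1.00 (adjusted p = 0.00016) and 0.54 (adjusted p = 0.0062). The siGcn5 mean was 7.21 times the siMyc mean without dox (log2 −2.51 for siMyc against siGcn5, SE 0.13, adjusted p = 2.2e-06) and 5.08 times with dox (log2 −2.22, adjusted p = 5.3e-07). Dox raised Adi1 by log2 1.20 in siControl (adjusted p = 1.7e-05), 1.04 in siMyc (adjusted p = 0.00011) and 0.74 in siGcn5 (adjusted p = 0.00095). The siMyc response was at log2 −0.17 from that of siControl (SE 0.19, adjusted p = 0.47). The siGcn5 response was at log2 −0.46 (SE 0.19, adjusted p = 0.092), which passed the test without siMyc replicate 1 or 2 with dox (0.0381 and 0.0385).

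Of 13 other methionine genes tested, 9 rose and 1 fell with dox in siControl, and 2 were higher and 10 lower with siMyc and dox than in siControl, beside the shares of all genes given for the polyamine list. The enzymes between Mtap and Adi1 are named for that place, after their values were seen. Mri1, the isomerase that follows Mtap, went from 5.44 and 5.58 to 15.7 and 14.6 RPKM with dox in siControl and stood at 5.22 and 7.16 in siMyc with dox (log2 −1.18 against siControl, adjusted p = 7.7e-05). Enoph1, the enolase-phosphatase before Adi1, went from 16.1 and 15.3 to 36.6 and 36.4 and stood at 21.0 and 21.7 in siMyc with dox (log2 −0.75, adjusted p = 5.0e-06). Apip, the dehydratase between them, was 20.4 and 18.6 RPKM without dox and 17.1 and 16.3 with dox in siControl (log2 −0.21, adjusted p = 0.051). Ahcy, which clears the S-adenosylhomocysteine left by methylation, was the largest fall of the list with siMyc and dox, from 158 and 165 RPKM in siControl to 25.0 and 35.6 (log2 −2.40, adjusted p = 4.3e-07). Without dox Ahcy was lower with siMyc too, at 26.6 and 27.9 against 59.5 and 53.6 in siControl (log2 −1.02, adjusted p = 0.0017). Cbs, the entry to cysteine synthesis, was 4.16 and 3.29 RPKM in siControl with dox and 0.0631 and 0.532 in siMyc with dox (log2 −1.88, adjusted p = 1.3e-05). Nnmt, which spends S-adenosylmethionine on nicotinamide, fell with dox in siControl (log2 −1.02, adjusted p = 6.3e-05) and was higher with siMyc than in siControl without dox (log2 1.20, adjusted p = 0.00071) and with it (log2 1.21, adjusted p = 1.7e-05).

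**Figure D3:**
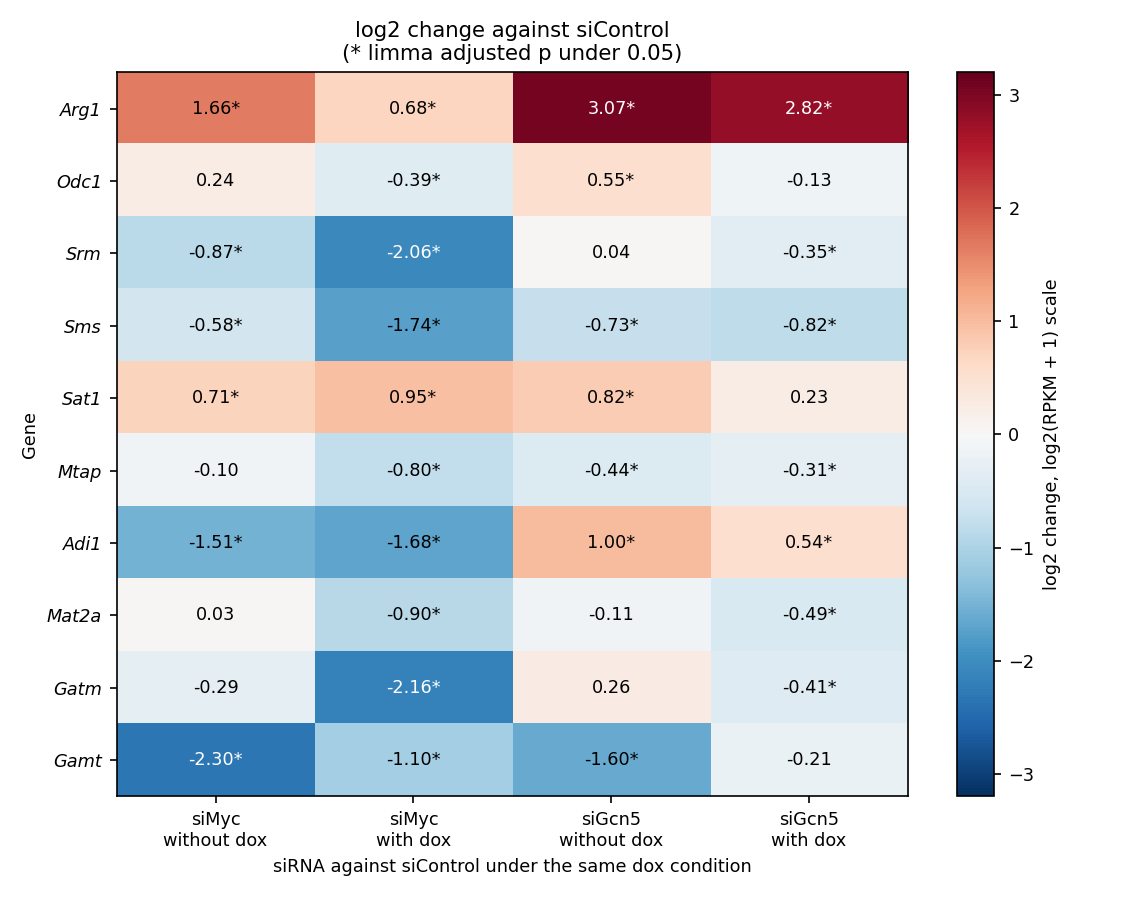
log2 change of each gene (rows) in siMyc and siGcn5 against siControl without and with dox (columns), on the log2(RPKM + 1) scale given by the colour bar, with an asterisk where the limma adjusted p was under 0.05. Adi1 is lower in siMyc (−1.51 and −1.68) and higher in siGcn5 (1.00 and 0.54), Arg1 is higher in all 4 columns, and Sms is lower in all 4.

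The enzymes of creatine synthesis moved in opposite directions with dox in siControl, while both were lower in siMyc with dox than in siControl. The promoter window of Gatm is shown as that of the member with the largest difference between the dox responses of siMyc and siControl. It lies at chr2:122611228-122611527 (GRCm38.p6, RefSeq, minus strand), with its CACGCG in capitals.
Gatm: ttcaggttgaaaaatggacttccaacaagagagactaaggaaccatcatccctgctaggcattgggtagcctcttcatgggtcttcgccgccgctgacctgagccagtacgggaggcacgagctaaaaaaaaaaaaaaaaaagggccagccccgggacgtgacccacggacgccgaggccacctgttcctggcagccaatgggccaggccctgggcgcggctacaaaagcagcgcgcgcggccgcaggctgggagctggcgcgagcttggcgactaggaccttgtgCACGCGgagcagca
Gatm, which starts creatine synthesis, was low without dox, at 0.948 and 1.14 RPKM in siControl, and rose with dox to 6.12 and 6.93, 6.24 times the mean without dox (log2 1.88, SE 0.11, adjusted p = 2.8e-07). In siGcn5 it rose from 1.56 and 1.33 to 4.25 and 5.06 (log2 1.21, adjusted p = 1.1e-05). In siMyc it was 0.738 and 0.606 without dox and 0.602 and 0.776 with dox, overlapping groups (log2 0.01, adjusted p = 0.93; −0.36, adjusted p = 0.028 with quantile normalization). With dox the siControl mean was 9.47 times that of siMyc (log2 −2.16, adjusted p = 1.6e-07). The dox response was smaller than in siControl in siMyc (log2 −1.86, SE 0.15, adjusted p = 2.3e-05) and in siGcn5 (log2 −0.67, SE 0.15, adjusted p = 0.013). The siGcn5 difference ended without siControl replicate 1 without dox (0.0511) or replicate 2 with dox (0.0502). With dox Gatm was lower in siGcn5 than in siControl (log2 −0.41, adjusted p = 0.0083). This difference was lost on leaving out siControl replicate 2 (0.0668) or siGcn5 replicate 1 (0.0699) with dox. Without dox it was at log2 −0.29 in siMyc (adjusted p = 0.077; 0.0362 with a pseudocount of 0.1) and 0.26 in siGcn5 (adjusted p = 0.064, and 0.0485 and 0.0483 without siGcn5 replicate 1 or 2 with dox). siMyc lay below siGcn5 without dox (log2 −0.55, adjusted p = 0.0015) and with dox (log2 −1.74, adjusted p = 6.4e-07).

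Gamt, which finishes creatine, had its highest level in control cells without dox. Its RPKM was 10.3 and 12.0 in siControl without dox and fell to 5.24 and 4.61 with dox (log2 −1.03, SE 0.21, adjusted p = 0.0013). In siMyc it was 1.13 and 1.83 without dox and 1.44 and 2.14 with dox. In siGcn5 it was 2.20 and 3.99 without dox and 3.67 and 4.57 with dox. The groups without and with dox overlapped in both siRNA arms, with log2 changes of 0.17 in siMyc (adjusted p = 0.55) and 0.35 in siGcn5 (adjusted p = 0.18, and 0.0232 without siGcn5 replicate 2 without dox). Both responses differed from that of siControl, by log2 1.21 in siMyc (SE 0.30, adjusted p = 0.0074) and 1.39 in siGcn5 (SE 0.30, adjusted p = 0.011). Without dox the siControl mean was 7.52 times that of siMyc (log2 −2.30, adjusted p = 0.00046) and 3.60 times that of siGcn5 (log2 −1.60, adjusted p = 0.00017). With dox Gamt was lower than siControl in siMyc (log2 −1.10, adjusted p = 0.00088) and at log2 −0.21 in siGcn5 (adjusted p = 0.42). siMyc lay below siGcn5 without dox (log2 −0.70, adjusted p = 0.017) and with dox (log2 −0.88, adjusted p = 0.0043). The first of these ended without siMyc replicate 1 (0.132) or siGcn5 replicate 2 without dox (log2 −0.38, 0.148). Gamt values rested on as few as 89 reads.

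Of the other creatine genes, 3 passed the filter, and all 3 were called for dox in each arm, where 74%, 44.8% and 58.4% of all genes were called in siControl, siMyc and siGcn5. The mitochondrial creatine kinase Ckmt1 went from 0.0607 and 0.122 to 5.35 and 4.18 RPKM in siControl (log2 2.40, adjusted p = 6.6e-07). It went from 0.0965 and 0.0677 to 1.21 and 1.97 in siMyc (log2 1.24, adjusted p = 0.00012). In siGcn5 it went from 1.29 and 0.758 to 7.60 and 7.32 (log2 2.08, adjusted p = 4.1e-06). The siGcn5 level without dox was above that of siControl (log2 0.88, adjusted p = 0.0010). The cytosolic creatine kinase Ckb went from 53.5 and 51.7 to 169.6 and 141 in siControl (log2 1.54, adjusted p = 2.8e-07), from 82.8 and 77.2 to 243 and 231 in siMyc (log2 1.55) and from 30.1 and 31.9 to 195 and 204 in siGcn5 (log2 2.64, adjusted p = 7.9e-09). The creatine transporter Slc6a8 fell with dox in siControl, from 33.0 and 36.1 to 20.4 and 18.5 (log2 −0.80, adjusted p = 3.2e-05). In siControl, Gatm, Ckmt1 and Ckb thus rose with dox while Gamt and Slc6a8 fell.

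Of 52 other genes of these pathways listed by name, 49 were found and 35 passed the filter on low values. With dox in siControl 21 of the 35 rose and 5 fell (median log2 0.54), in siMyc 14 rose and 8 fell (median 0.13), and in siGcn5 18 rose and 7 fell (median 0.35). Of all genes 46.1% rose and 27.9% fell in siControl, 28.9% and 15.9% in siMyc, and 36% and 22.4% in siGcn5. Their dox response in siMyc was lower than in siControl for 20 and higher for 3 (median difference −0.44, against −0.03 for all genes, of which 29.3% were lower and 24.8% higher). In siGcn5 it was lower for 3 and higher for 4 (median difference −0.25, against −0.08 for all genes, of which 14.5% were lower and 11.4% higher). Among arginine genes, Ass1, the argininosuccinate synthase that remakes arginine, was 139 and 157 RPKM in siControl and 66.1 and 69.6 in siGcn5 without dox (log2 −1.11, adjusted p = 1.4e-05), a fall where Arg1 rose. In siMyc without dox Ass1 was 100.4 and 114. With dox it was 143 and 144 in siControl, 69.4 and 80.4 in siMyc and 113 and 108 in siGcn5. Asl, the lyase that follows Ass1, rose in siGcn5 without dox (log2 0.57, adjusted p = 0.00015), and Aldh18a1, which makes the precursor of proline and ornithine, fell (log2 −0.88, adjusted p = 0.00014). Mat2b, the regulatory partner of Mat2a, was higher in siGcn5 than in siControl without dox (log2 0.76, adjusted p = 3.7e-05).

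**Figure D4:**
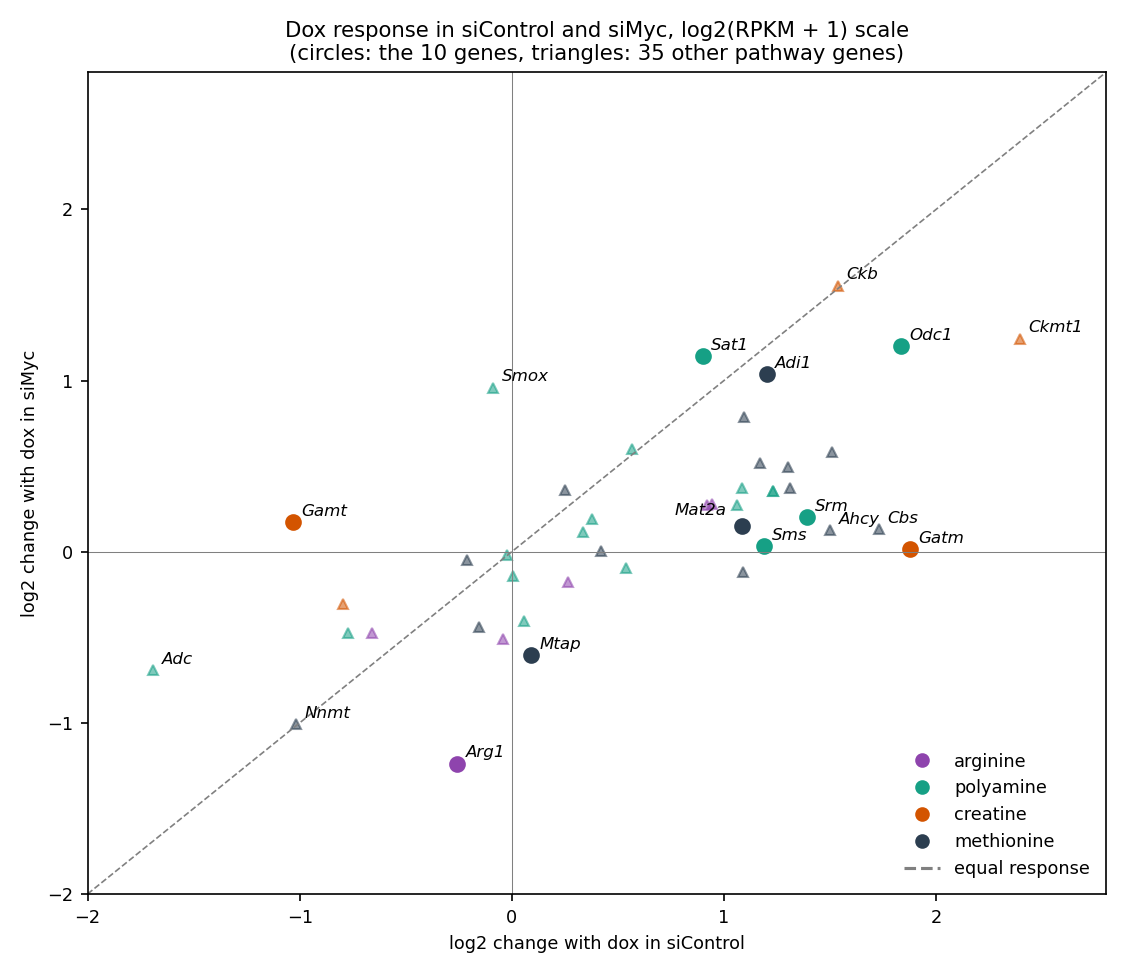
log2 change with dox in siControl (horizontal axis) and in siMyc (vertical axis) on the log2(RPKM + 1) scale, for the 10 genes (circles) and 35 other pathway genes (triangles), coloured by pathway, with a dashed line where the responses are equal. Gatm, Srm, Sms, Mat2a, Ahcy and Cbs lie near 0 on the siMyc axis and right of 1 on the siControl axis, while Ckb, Nnmt and Adi1 lie near the line and Smox stands above it.

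The members did not form 1 pattern over the 12 libraries. Pearson's r of log2(RPKM + 1), given as a description over libraries that share groups, was 0.97 for Srm with Gatm, 0.92 for Sms with Mat2a and 0.88 for Sms with Gatm, Srm with Adi1, Gatm with Mat2a and Srm with Sms. The r of Arg1 with the other members ran from −0.47 (Sms) to 0.24 (Adi1), and Sat1 was at −0.69 with Mtap and −0.64 with Gamt. Among all other genes tested, the nearest to Srm were Ydjc and Fpgs (r = 0.99 each), to Gatm Peo1 and Cep68 (r = 0.99 each), to Sms Dis3 and Slc25a5 (r = 0.99 each), to Mat2a Eif3a and Bdp1 (r = 0.99 each), to Odc1 Secisbp2 and Elmod1 (r = 0.99 each) and to Adi1 Prmt3 (r = 0.99) and Fbxo28 (r = 0.98). Those nearest to Sat1 were 0610007L01Rik (r = 0.98) and Serpinb8 (r = 0.97), and to Arg1 5133401N09Rik and Folr1 (r = 0.97 each). Mtap and Gamt had less close neighbours, Rbmx (r = 0.94) and Dgcr8 (r = 0.93) for Mtap and Runx3 (r = 0.92) and Aldoa (r = 0.89) for Gamt.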

How the data were processed

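RNA of 12 libraries had been depleted of ribosomal RNA, made into stranded libraries and sequenced on an Illumina HiSeq instrument, per the labels' protocols. The authors deposited 1 RPKM value per gene symbol and library. Per the submitters' processing notes the build was mm9, and the tools listed were Bowtie 0.12.8, TopHat2 2.0.9, affy, edgeR and HTSeq. The sources used here do not give their roles, the annotation, the strand setting or filters. RPKM values were used as deposited; they divide by library depth, so total RNA per cell is not measured. Reads shared with pseudogene copies could have been split or dropped.

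Genes with RPKM of at least 1 in at least 2 libraries were tested (13175) on the log2(RPKM + 1) scale in R 4.3.3 by limma 3.58.1, whose prior variance followed mean intensity, with 1 term per group over all 12 libraries (6 residual and 4.17 prior degrees of freedom), two-sided, with Benjamini-Hochberg adjustment over all genes. Whole reads were recovered from the RPKM steps for all 20788 genes with a value (tolerance 0.05 read) and used for depth and for limma-voom. Replicates differed by more than sampling noise (chi-square per degree of freedom 33.6 to 92.5). Scripts were tested on simulated data.

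The 10 members and the lists were chosen with earlier results of these data known. Named genes were all members, the siRNA targets, in each comparison described up to 3 called rises and 3 called falls of the pathway list, and the 2 genes closest to each member in r. Amd1, Amd2, Mri1, Enoph1, Apip, Paox and Sat2 fall outside this rule and were named after their values were seen. Alternatives were another pseudocount (0.1), no filter, a mean RPKM of at least 5, median-ratio scaling, quantile normalization, a replicate block, voom, and each library left out. Promoter sequences are from RefSeq.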

Additional observations from a re-analysis of the deposited data

Results flagged for a closer look

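The dox response differed between siRNA arms by the limma interaction test for 12 member and siRNA pairs, given as the log2 difference of the dox response from that of siControl. In siMyc it was lower for Gatm (−1.86), Srm (−1.19), Sms (−1.15), Arg1 (−0.98), Mat2a (−0.93), Mtap (−0.69) and Odc1 (−0.63), and higher for Gamt (1.21). In siGcn5 it was lower for Odc1 (−0.68), Gatm (−0.67) and Sat1 (−0.59), and higher for Gamt (1.39). Gamt is the member that fell with dox in siControl and was already low without dox in both siRNA arms.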

How the results depend on the processing

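Of 638 values under planned settings, 607 kept their direction and their side of the threshold, 9 calls were lost, 12 were gained and 10 values changed sign. With 1 library left out, 1258 of 1320 kept both, and with voom, added after seeing the data, 107 of 110. Of the 23 sign changes 1 was a call, Gatm for dox in siMyc with quantile normalization (−0.36). The others were small values on either side of 0, and their cause was not tested. With median-ratio scaling Mtap was at −0.081 for dox in siControl, Sms at −0.035 and Gatm at −0.017 for dox in siMyc, Srm at −0.10 for siGcn5 without dox and Sat1 at 0.011 for siMyc against siGcn5 without dox. With quantile normalization Mtap was at −0.12 for dox in siControl, Sms at −0.11 and Gamt at −0.071 for dox in siMyc and Srm at −0.00069 for siGcn5 without dox, and voom put Adi1 at 0.046 for the siMyc interaction. With 1 library left out, the values that changed sign ran for dox in siMyc from −0.056 to 0.12 (Sms), −0.033 to 0.38 (Gamt) and −0.061 to 0.088 (Gatm). Without dox they ran from −0.0036 to 0.071 (Mat2a, siMyc), −0.23 to 0.014 (Mat2a, siGcn5) and −0.0035 to 0.090 (Srm, siGcn5), and for the interactions from −0.38 to 0.048 (Adi1, siMyc) and −0.26 to 0.076 (Sms, siGcn5).

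Counts of called members ran with 1 library left out from 4 to 8 for siGcn5 with dox (7 with all libraries). The share of all genes called ran there from 39.2% to 55.9% (56.3% with all libraries). A mean RPKM of at least 5 left 2 called members for the siGcn5 interaction (4 with the main filter), since Gamt and Gatm were below it and not tested. The share of all genes called for that interaction was 28.8% (25.9% with the main filter). With 8748 genes tested, the count of all genes called for dox in siMyc went from 5899 to 3787 (44.8% to 43.3%). The count of all genes called for siMyc without dox fell from 3098 to 1272 and 1387 without siControl replicate 1 or 2 without dox and to 1072 without siMyc replicate 1 without dox, and for the siGcn5 interaction from 3409 to between 1677 and 2232 without any of siControl replicates 1 and 2 without dox, siControl replicate 2 with dox and siGcn5 replicate 1 without or with dox.

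The labels do not say that replicate numbers mark a shared batch, and the main tests did not pair the libraries by them. Deviations of same-numbered libraries were nevertheless positively correlated, at 0.093 to 0.489 over 15 pairs of groups, 14 of them over 0.1. The main tests did not account for this shared part. With the replicate block 8, 5 and 9 members were called for dox in siControl, siMyc and siGcn5, 8 and 10 for siMyc without and with dox, 8 and 8 for siGcn5, 9 and 5 for the siMyc and siGcn5 interactions, and 7 and 10 for siMyc against siGcn5; it added 7 calls and ended none, while the share of all genes called rose to between 33.7% and 79.3%, for the siGcn5 interaction from 25.9% to 38.4%. The added calls were Arg1 for dox in siGcn5 (adjusted p = 0.011), Odc1 (0.041) and Gatm (0.049) for siMyc without dox, Gatm for siGcn5 without dox (0.046), Sat1 for siGcn5 with dox (0.0052), Sat1 for the siMyc interaction (0.021) and Mat2a for the siGcn5 interaction (0.026). The edgeR test listed as an alternative was not run, and voom on the recovered reads was used in its place. Depth limits Gamt, Gatm and Arg1 most, with 89, 93 and 174 reads in their lowest libraries.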
